A study of Rattus norvegicus with 23 samples.

Results

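Immediate early genes are genes whose RNA rises soon after a cell is stimulated, and the 10 described here are transcription factors of this class: Fos, Fosb, Jun and Junb, Egr1, Egr2 and Egr3, Atf3, and Nr4a1 and Nr4a3. They were found through the accession that each array probe carries. All 10 of 10 were measured, by 12 probes, among the 16544 genes that could be named on the array, and all 10 passed the filter on low signals that left 16089 genes to test. The genes were described in RNA of 6 regions from the heart and great vessels of male Wistar rats aged 8 to 11 weeks, hybridized to 23 single-color Agilent arrays, with no treatment or genetic change in any group. LA (4 arrays) was left atrium next to the pulmonary vein, LV (4) pieces of left ventricle, RV (3) the free wall of the right ventricle, SA (4) the sinoatrial region, PV (4) pulmonary vein and PA (4) pulmonary artery. The animals were anesthetized with pentobarbital and heparinized, the heart and lungs were perfused with ice-cold solution and the tissues were cut out in turn, within 30 min in all. The sinoatrial region was taken in a separate procedure of about 20 min and pooled from 2 rats per sample. The 23 arrays came from 12 rats in the study and an LV mass was cut into 3 pieces, so some arrays must share an animal. Which ones is not given. The p-values below treat the arrays as independent and measure the spread between these samples.

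The genes are switched on by signals that reach factors already bound at their promoters. The serum response factor binds the CArG box, and CREB binds the cAMP response element, and both act within minutes without new protein. Fos and Jun family proteins pair to form AP-1, Egr proteins are zinc finger activators, Atf3 is a stress-inducible member of the ATF/CREB family, and the Nr4a genes encode orphan nuclear receptors. In heart and vessel they are known to respond to growth factors, stretch and injury, and in many tissues to the handling of the tissue itself.

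Promoters from a RefSeq-derived table (build GRCr8) were matched for 5 of the 10 genes: Fosb, Junb, Egr1, Egr2 and Nr4a1. The 250 bases before the start are printed for 3 of them to show how such elements lie in genes described below: Nr4a1 with repeated copies, Junb with 1, and Egr2 with elements of both kinds. Capitals mark the CArG box and the letters TGACG, the core of the cAMP response element, on either strand (CGTCA on the other). The start in the table lies inside the annotated gene for Nr4a1, Egr2 and Fosb.
Nr4a1 (chr7:134259888-134260137, plus strand): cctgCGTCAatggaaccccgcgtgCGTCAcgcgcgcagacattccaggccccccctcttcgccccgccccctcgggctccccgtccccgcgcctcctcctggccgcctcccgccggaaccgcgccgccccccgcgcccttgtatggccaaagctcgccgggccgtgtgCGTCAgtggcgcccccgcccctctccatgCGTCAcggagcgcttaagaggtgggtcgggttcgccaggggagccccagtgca
Junb (chr19:40080876-40081125, plus strand): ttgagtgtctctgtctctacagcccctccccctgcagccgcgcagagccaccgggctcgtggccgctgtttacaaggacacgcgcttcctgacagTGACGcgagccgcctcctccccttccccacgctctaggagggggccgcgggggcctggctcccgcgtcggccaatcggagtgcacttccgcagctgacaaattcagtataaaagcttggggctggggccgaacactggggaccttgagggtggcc
Egr2 (chr20:21054442-21054691, minus strand): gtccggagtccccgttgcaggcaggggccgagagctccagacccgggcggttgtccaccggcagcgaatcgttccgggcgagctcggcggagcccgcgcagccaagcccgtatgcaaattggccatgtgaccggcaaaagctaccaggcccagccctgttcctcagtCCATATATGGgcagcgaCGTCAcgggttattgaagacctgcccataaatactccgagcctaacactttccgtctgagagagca
TGACG occurred 4 times before Nr4a1, at 1 place before Junb and at 1 place before Egr2, 66 to 62 bases from the start. It was present in 4 of the 5 promoters (not Fosb) and in 19.0% of all 27457 promoters of this length. A CArG box lay 83 to 74 bases before the Egr2 start. Egr1, not printed, had a CArG box and TGACG at the same places as Egr2, besides another of each at 105 to 96 and 135 to 131 bases. It was found in 2 of the 5 promoters, those of Egr1 and Egr2, and in 1.5% of all. The full element TGACGTCA (1.7% of all), the AP-1 site TGACTCA (3.98%) and the EGR site GCGTGGGCG (0.514%) were in none of the 5, and TATAAA (13.1%) was in those of Fosb and Junb. Such a match is a run of letters, and binding was not measured here.

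The labels of the tissues were checked against markers. The summed signal of 4 atrial myocyte markers (Myl7, Myl4, Sln, Mybphl) was 20 to 20.39 (log2) on LA, SA and PV arrays and 17.85 to 18.40 on ventricular arrays. The 4 ventricular markers (Myl2, Myl3, Irx4, Myh7) reached 20.08 to 20.48 in LV and RV. PA held little of either, at 11.63 to 15.13 for the atrial sum. Signals are the deposited normalized intensities, given as log2 (value + 1), and of several probes for a gene the brightest was used array by array. The share of probes well above background was 58.6% to 79.8%, more in the first row of arrays on each of the 3 slides (72.7% to 79.8%) than in the second (58.6% to 69.4%). Saturation was not seen. The faintest signal called well above background lay between 3.86 and 5.66, which is near the levels of Fosb, Egr3 and Nr4a3 in some regions.

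By 1 test over the 6 regions, the members that differed were Fos, Fosb, Jun, Atf3, Nr4a1 and Nr4a3 (6 of 10, limma's moderated F-test, Benjamini-Hochberg adjusted p below 0.05 over all genes). Over all 16089 genes the same test called 64.4%, so the share among the 10 is near the background. Junb, Egr1, Egr2 and Egr3 did not pass. All 6 that passed had PA and PV as their 2 highest regions. In bulk tissue, fewer cells of a type and less RNA per cell cannot be told apart.

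**Figure D1:**
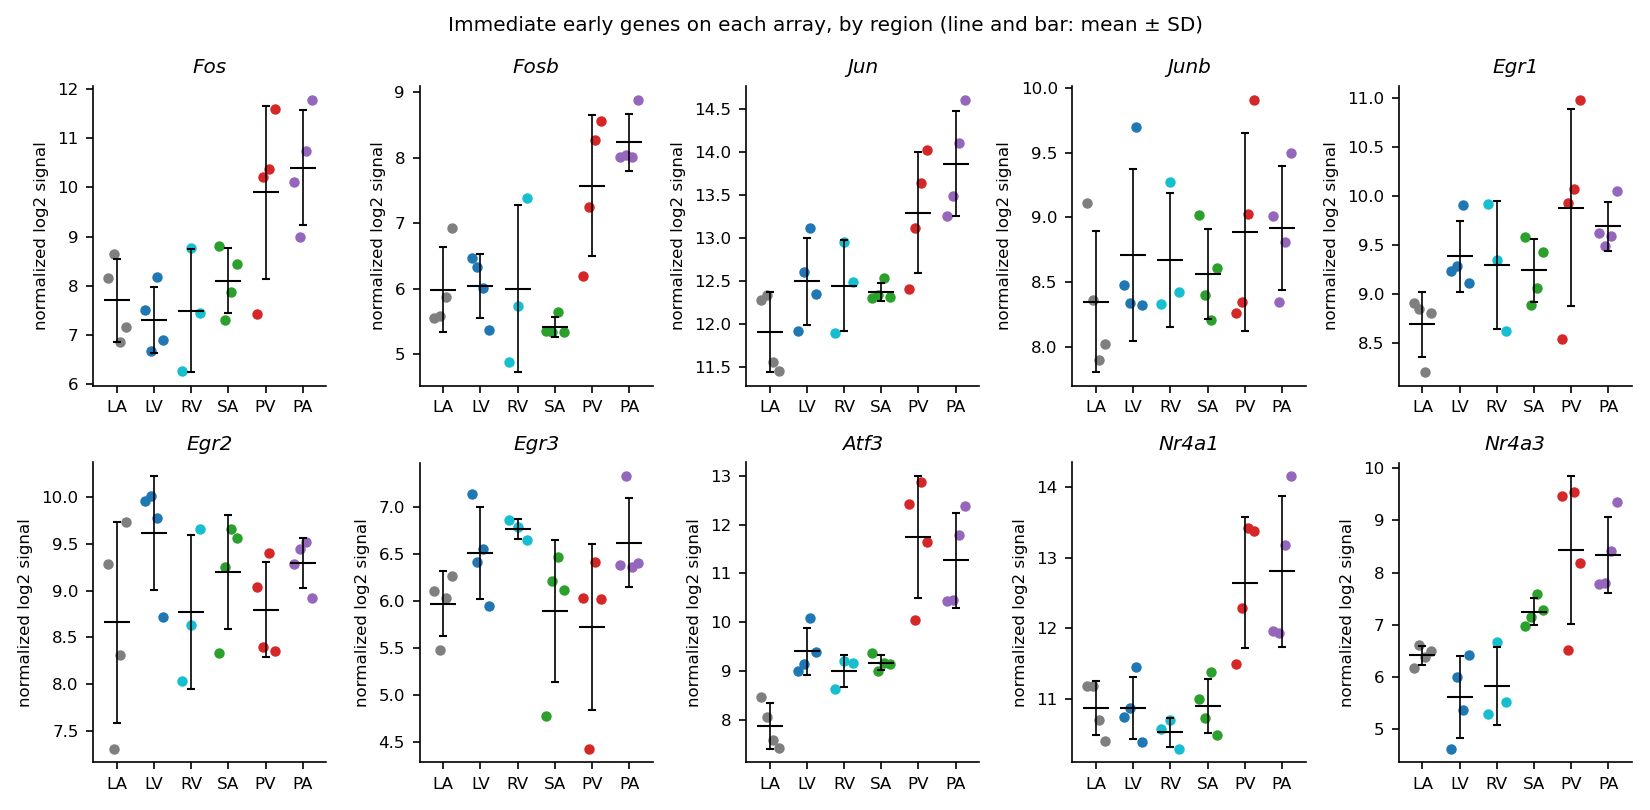
Normalized log2 signal (vertical axis, each panel on its own scale) of the 10 immediate early genes on each of 23 arrays, by region (horizontal axis); points are arrays, the line is the mean and the bar its SD. The PA and PV points of Fos, Atf3 and Nr4a1 lie mostly above those of LA, LV, RV and SA, and the PV points are widely spread.

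Fos, the DNA-binding partner of Jun in AP-1, was measured well above background on all 23 arrays. On the 4 PA arrays, in the order of their replicate numbers 1 to 4, it was 10.11, 8.98, 10.73 and 11.78. On the PV arrays it was 7.42, 10.20, 10.38 and 11.59. All 4 PA arrays and 3 PV arrays lay above the highest of the 15 other arrays, and PV replicate 1 (PV1 below) lay among them. Those others were 8.15, 8.65, 6.85 and 7.16 in LA, 7.51, 6.67, 8.17 and 6.89 in LV, 6.27, 8.77 and 7.44 in RV, and 8.81, 7.30, 7.87 and 8.44 in SA. Regional means fell in the order PA, PV, SA, LA, RV and LV, from 10.40 ± 1.17 (SD, n = 4) to 7.31 ± 0.67 (n = 4). From SA to LV, neighbours differed by less than their SDs. The moderated F was 5.93 (adjusted p = 0.00363).

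Fosb, another Fos family protein, showed the same order at the top with lower signals. It was 8.01, 8.05, 8.01 and 8.89 in PA and 6.20, 7.25, 8.27 and 8.57 in PV. In SA it was 5.35, 5.34, 5.65 and 5.34, and only 2 of these 4 arrays were well above background. The range over LA, LV and RV was 4.88 (RV1) to 7.39 (RV3), so that PV1 and PV2 fell within it. Jun, the other partner in AP-1, was bright in every region. It was 13.26, 13.49, 14.10 and 14.61 in PA and 12.40, 13.11, 13.64 and 14.02 in PV, against 11.45 to 13.12 on the 15 other arrays. All 4 PA arrays were above that range, and 2 PV arrays. Junb, which forms AP-1 with weaker activity than Jun, barely separated the regions, with means between 8.35 ± 0.54 (n = 4) in LA and 8.92 ± 0.48 (n = 4) in PA and an F of 0.598 (adjusted p = 0.739). Its highest arrays were PV4 at 9.91, LV3 at 9.70 and PA4 at 9.50.

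Atf3 had the largest F of the 10, 17.2 (adjusted p = 6.59e-06). It was 12.42, 10.04, 12.87 and 11.65 in PV and 10.44, 10.45, 11.79 and 12.38 in PA. LA was the lowest region, at 8.47, 8.07, 7.59 and 7.43, and LV, RV and SA lay between 8.63 and 10.09. All 4 PA arrays and 3 PV arrays exceeded every other array, while PV2 fell just below the highest of them, LV3. The mean of LA, 7.89 ± 0.47 (n = 4), was below that of each other region, and RV, SA and LV did not differ beyond their spread. Of all variance of Atf3 over the 23 arrays, 82.3% lay between regions.

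Nr4a1 (Nur77) was the only member for which all 8 PA and PV arrays exceeded all 15 others. It was 11.96, 11.94, 13.18 and 14.15 in PA and 11.50, 12.29, 13.42 and 13.37 in PV, and 10.30 to 11.46 elsewhere. PV1, at 11.50, cleared LV3 by little. Nr4a3 (NOR-1), a relative of Nr4a1, was 7.79, 7.80, 8.41 and 9.35 in PA and 9.46, 6.52, 9.55 and 8.18 in PV. SA came next at 6.97, 7.16, 7.59 and 7.28, above every LA array (6.18 to 6.61), LV array (4.63 to 6.43) and RV array (5.29 to 6.68). PV2 was thus the PV array of Nr4a3 within the range of the rest. The ventricles were lowest, with means of 5.62 ± 0.79 (n = 4) in LV and 5.83 ± 0.74 (n = 3) in RV.

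None of the Egr genes passed the test among regions. Egr1, an activator of growth factor and matrix genes, was 8.54, 9.93, 10.07 and 10.98 in PV and 9.62, 9.49, 9.59 and 10.05 in PA. In the rest it was 8.20 to 9.92, so 3 PV arrays and 1 PA array exceeded that range (F 2.45, adjusted p = 0.104). PV and PA were its highest regions too, and Egr1 passed without PV1 (F 6.42, adjusted p = 0.00285), which made 7 of 10, and with slide as a block (F 4.19, adjusted p = 0.0198). It did not pass with row of the slide as a block (F 2.11, adjusted p = 0.154) nor without any other array, with the lowest F without LA3 (1.67, adjusted p = 0.256). Egr3 was low throughout, from 4.43 (PV2) to 7.33 (PA2), and well above background on 21 of 23 arrays (adjusted p = 0.132).

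Egr2 (Krox20), also a regulator of myelination, gave 2 answers, because its 2 probes for the same accession disagreed. By the brighter probe, which sets the gene's value on all arrays but PV4, the regional means lay between 8.66 ± 1.08 (n = 4) in LA and 9.62 ± 0.60 (n = 4) in LV, and the PV arrays were 9.04, 8.40, 9.40 and 8.0. By the dimmer probe, the PV arrays were 4.93, 6.96, 7.62 and 8.35, with PV1 lowest and PV4 highest as for Fos. All other arrays lay between 3.46 and 5.74 on that probe, so 3 PV arrays stood above all of them. Fitted over all 43522 probes, the dimmer probe differed between regions (F 7.77, adjusted p = 0.00119) and was 2.07 ± 0.41 (SE) higher in PV than in the other regions (adjusted p = 0.00171). The brighter did not differ between regions (F 1.27, adjusted p = 0.415). The dimmer probe was well above background on 14 of 23 arrays, 3 of 4 in PV and 1 of 4 in SA. Which of them follows the Egr2 transcript was not tested. The 2 probes of Jun both were higher in PA than in the other regions, by 1.15 ± 0.28 and 1.60 ± 0.24. Against PV alone, the latter probe was higher in PA (0.84 ± 0.31, adjusted p = 0.034) and the former was not called (0.36 ± 0.36, adjusted p = 0.453).

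**Figure D2:**
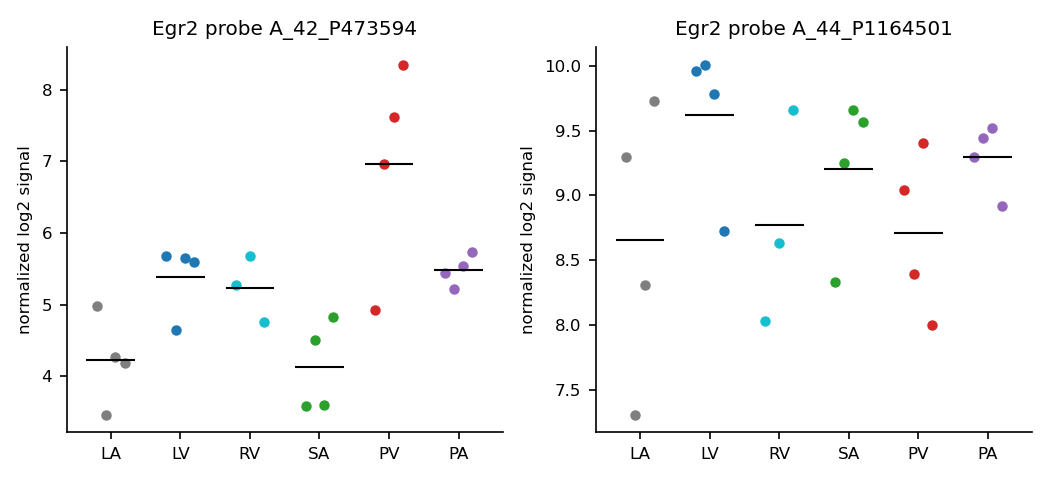
Normalized log2 signal (vertical axis) of the 2 Egr2 probes on each array by region (horizontal axis); points are arrays and lines are regional means. On the left, the dimmer probe has 3 PV arrays between 6.96 and 8.35, above all others, and on the right the brighter probe shows no such rise.

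PA was compared with the mean of the other 5 regions in 1 fit of all 23 arrays. The same 6 genes were higher in PA and none was lower. Over all genes 31.4% were higher and 27.7% lower, and the median difference was 1.5 for the 10 members and 0.05 for all genes. Fos was 4.91-fold higher (log2 difference 2.30 ± 0.59, SE, adjusted p = 0.00216) and Fosb 4.10-fold (2.03 ± 0.39, adjusted p = 0.000137). Atf3 was 3.54-fold higher (1.82 ± 0.39), Nr4a1 3.12-fold (1.64 ± 0.35), Nr4a3 3.09-fold (1.63 ± 0.42) and Jun 2.57-fold (1.36 ± 0.28), with adjusted p from 0.000246 to 0.00231. The differences of Egr1 (0.39 ± 0.29), Egr3 (0.45 ± 0.31), Egr2 (0.28 ± 0.36) and Junb (0.28 ± 0.30) did not pass. With normexp, Fosb was higher by 1.25 and Nr4a3 by 1.01, both still called. Within each of the 3 slides all 6 stayed higher in PA, for Fos by 4.13, 1.91 and 1.55 (RV was on 2 of the slides). The first 2 of these values rest on 1 PA array each, PA4 and PA3.

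The comparison of PV with the other 5 regions was added after the values were seen. It holds PA among those 5, as the comparison of PA holds PV, so the results share arrays. Atf3, Nr4a3, Nr4a1 and Fosb were higher in PV and none of the 10 was lower, where 10.4% of all genes were higher and 8.59% lower. Atf3 was 5.26-fold higher (2.39 ± 0.39, adjusted p = 0.000165), Nr4a3 3.34-fold (1.74 ± 0.42, adjusted p = 0.0061), Nr4a1 2.72-fold (1.45 ± 0.35, adjusted p = 0.00613) and Fosb 2.36-fold (1.24 ± 0.39, adjusted p = 0.032). Fos missed the threshold, at 1.69 ± 0.59 (adjusted p = 0.0515), as did Jun at 0.68 ± 0.28 (adjusted p = 0.0961) and Egr1 at 0.62 ± 0.29 (adjusted p = 0.149). Without PV1 those 3 passed too, with 2.52 ± 0.54, 0.98 ± 0.28 and 1.07 ± 0.25 (adjusted p = 0.00297, 0.0224 and 0.00536), which made 7 of 10. Fos was also called without LA2, LV3, PA4 or RV2 (1.75 to 1.82, adjusted p = 0.0346 to 0.0489), but was 1.59, 1.53 and 1.13 without PV2, PV3 or PV4 (adjusted p = 0.137, 0.143 and 0.259). It was called under 8 of 13 other settings with all arrays (adjusted p over the 13 from 0.0275 to 0.0808), with slide as a block at 1.84 (adjusted p = 0.0294). Fosb was lost without PV2, PV3 or PV4, at 1.34, 1.0 and 0.90, and with normexp it was 0.68 (adjusted p = 0.0411). The slide that held PV1 and PV2 gave smaller differences than the other 2, 0.36 against 1.98 and 2.45 for Nr4a1 and 1.59 against 2.0 and 3.8 for Atf3. That slide also held PA4 and no RV array in the comparison, and the other 2 slides held 1 PV array each. In the first row of the slides, where PV2 was the only PV array, Nr4a3 differed by 0.12, against 1.99 in the second.

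**Figure D3:**
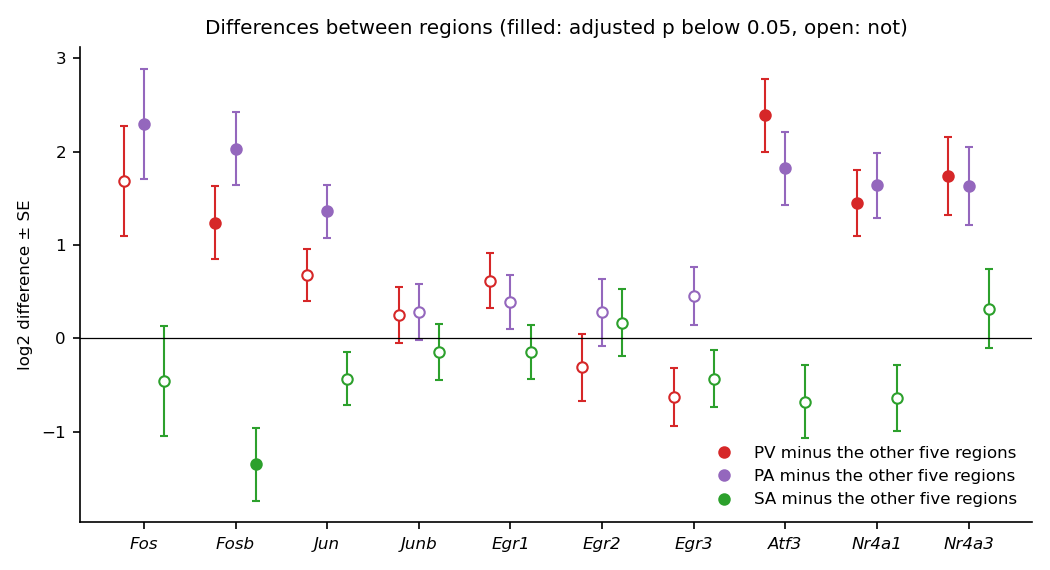
Log2 difference (vertical axis) with its standard error of each gene (horizontal axis) between PV, PA or SA and the mean of the other 5 regions; filled points passed an adjusted p of 0.05 and open points did not. PA is filled for 6 genes, PV for 4 and SA for Fosb alone, which is lower.

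PA and PV were set against each other in a contrast also added after the values were seen, and none of the 10 differed by its highest probe, where 53.4% of all genes did. By probe, 1 of the Jun probes and the dimmer Egr2 probe (-1.48 ± 0.52, adjusted p = 0.027) did. At an unadjusted p below 0.05 limma gave 1 member, Egr3 (0.90 ± 0.40 higher in PA, adjusted p = 0.0659), and 9268 genes in all. Differences were 0.50 ± 0.76 for Fos, -0.48 ± 0.50 for Atf3 and 0.16 ± 0.45 for Nr4a1, errors that leave room for a difference in either direction. Without PV2 Atf3 was lower in PA (-1.04 ± 0.42, adjusted p = 0.0463), and Egr3 passed without PV3 (1.13 ± 0.42, adjusted p = 0.03) or SA1 (0.90 ± 0.35, adjusted p = 0.0372).

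SA was compared with the other 5 regions, and 8 of the 10 members had a negative difference there, with a median of -0.43 against -0.03 for all genes. Fosb was lower by test (-1.35 ± 0.39, adjusted p = 0.0134) and none was higher, where 14.5% of all genes were lower and 12.7% higher. With 2 of the 4 SA arrays not well above background for Fosb, the value rests on dim signals, and with normexp it was -0.60 and no longer called (adjusted p = 0.059). With PA and PV among the 5, these differences are set against the highest regions. Fos was 8.10 in SA against 8.56 in the rest (-0.46 ± 0.59, adjusted p = 0.666), and Atf3 was 9.18 against 9.86 (-0.68 ± 0.39, adjusted p = 0.226).

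The ventricles (LV and RV) were compared with LA, SA and PV. Nr4a3 was lower in the ventricles, at 5.72 against 7.37 (-1.64 ± 0.37, adjusted p = 0.00123), and Egr3 higher, at 6.64 against 5.86 (0.78 ± 0.27, adjusted p = 0.0268), 1 member each way where 18.6% of all genes were lower and 22.3% higher. The call for Egr3 was lost without LV1, RV1 or RV2 (0.67, 0.75 and 0.77). It was also lost with slide as a block (0.60, adjusted p = 0.0636). Nr4a1 lay at the threshold (-0.77 ± 0.31, adjusted p = 0.0503) and was called lower in the ventricles when LA4, LV3, PA1, PA2, PA4, PV1 or SA4 was left out. Fos (-1.17 ± 0.51, adjusted p = 0.0784) was called lower without PV1 (-1.44 ± 0.42, adjusted p = 0.0107) or RV2 (-1.49 ± 0.54, adjusted p = 0.0358). Other settings with all arrays gave 3 calls in place of 2 in 7 of 13 cases. With normexp, another background correction, Nr4a3 differed by -0.93 and Egr3 by 0.40, and both were called. LV and RV did not differ in any of the 10 by limma's adjusted p, with 0.522% of all genes called. At an unadjusted p below 0.05 there were 0 members and 1727 genes, and for Egr2 the difference was 0.84 ± 0.50.

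The members varied widely between arrays of the same region. The SD within regions was 0.52 (Jun) to 1.12 (Fos), with a median of 0.68, against 0.27 for all genes tested. All 10 were above that median, and 1 of 10 (Fos) was above the 90th percentile of all genes, 0.80. Low signals add spread, so the 10583 genes well above background on every array were also taken. Their median was 0.17 and their 90th percentile 0.41, which all 10 members exceeded, although Fosb (19 of 23 arrays) and Egr3 (21 of 23) do not belong to that class. Fos was at the 99.9th percentile of those genes and Nr4a3 at the 99.3rd. The share of variance between regions, median 65.0%, was close to the 67.0% of all genes tested and below the 79.5% of the genes well above background on every array.

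**Figure D4:**
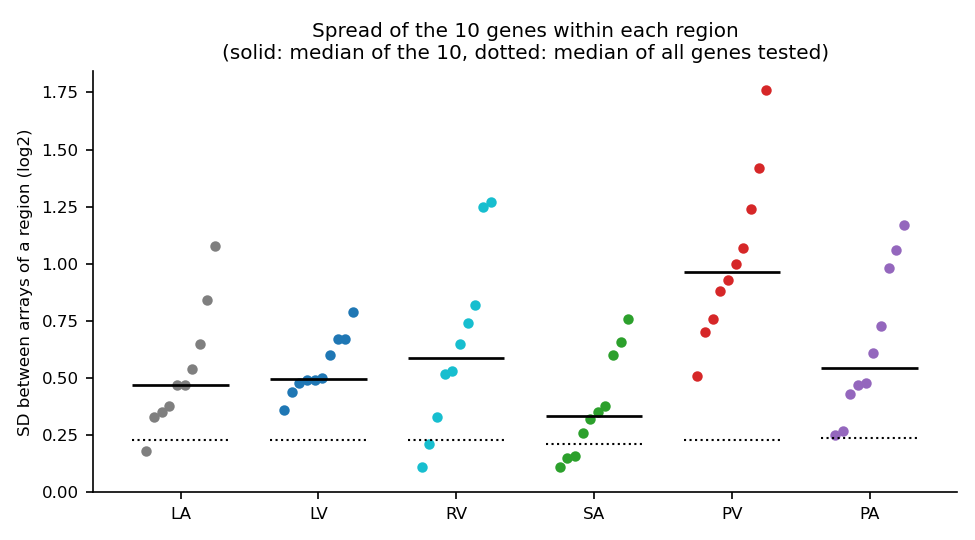
SD between the arrays of a region (vertical axis, log2) for each of the 10 genes (points), by region (horizontal axis); the solid line is the median of the 10 and the dotted line that of all genes tested. The solid line is at 0.97 in PV and 0.33 in SA, and the dotted line stays between 0.21 and 0.24.

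This spread was itself uneven. In PV the median SD of the 10 was 0.97, in RV 0.59, in PA 0.54, in LV 0.50, in LA 0.47 and in SA 0.33, while that of all genes was 0.21 to 0.24 in each region. Among the 8 members with 1 probe, the ratio of the highest to the lowest PV array ran from 3.15-fold for Junb to 7.08-fold for Atf3, 8.26-fold for Nr4a3 and 18.1-fold for Fos. In SA, among those of them well above background on all 4 arrays, it ran from 1.3-fold for Atf3 to 2.86-fold for Fos. Fosb and Egr3 were not well above background on 2 and 1 of the SA arrays. Over the 8 members well above background on all 23 arrays, a set chosen after the values were seen, the median SD was 0.97 in PV and 0.33 in SA. The SA samples each pooled 2 rats, and the part of pooling in their narrow spread was not tested.

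Within PV the genes did not rise and fall together. PV1 and PV2 lay on the same slide but in different rows, with 59.8% and 76.2% of probes well above background. Between them, Fos was 6.89-fold higher on PV2, Egr1 2.62-fold and Fosb 2.08-fold. Nr4a3 was 7.71-fold higher on PV1, Atf3 5.19-fold and Egr3 3.14-fold. PV3 was above the regional mean for all 10 and PV4 for 7. The median absolute difference between PV1 and PV2 was 1.22 for the 10 and 0.26 for all genes, whose 95th percentile was 1.39. With 1 array on each side there is no test of these differences. The sum of smooth muscle markers was 15.90 on PV1 and 15.46 on PV2, and that of atrial markers 20.12 and 20.22. Among other sums, that of platelet markers was 10.63 and 9.76 and that of neutrophil markers 7.97 and 8.82. Endothelium markers gave 15.23 and 15.18.

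**Figure D5:**
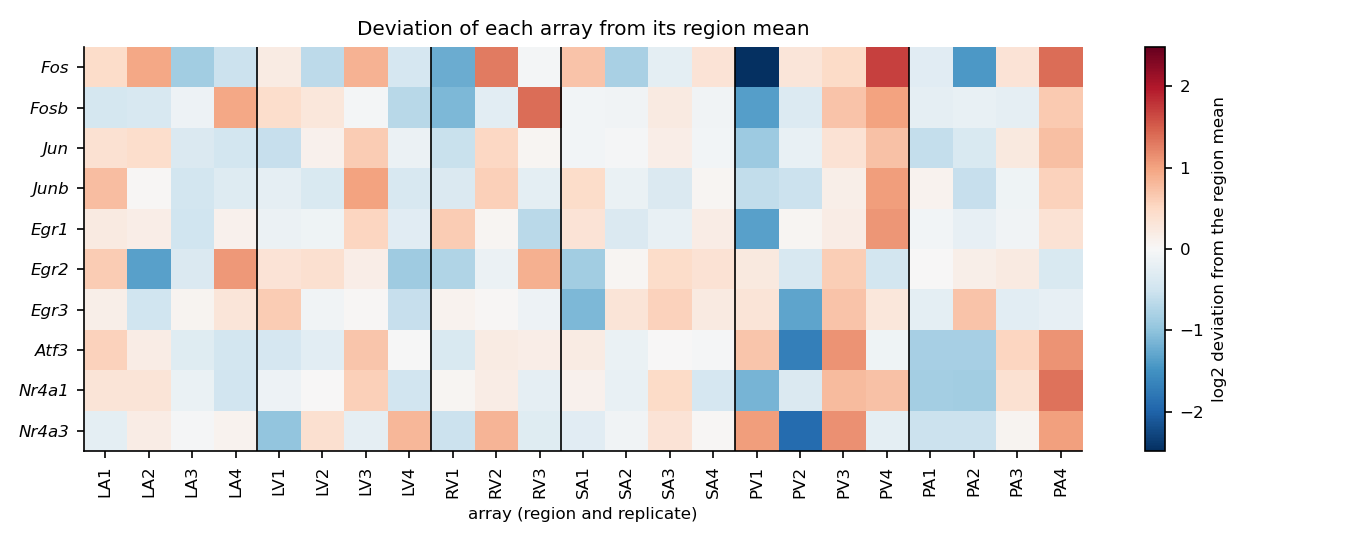
Log2 deviation (color) of each of the 10 genes (rows) on each array (columns, grouped by region) from the mean of its region. On PV1 Fos is far below its mean while Atf3 and Nr4a3 are above theirs, PV2 is the reverse for Atf3 and Nr4a3, and PV3 is above the mean for all 10.

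Across the 23 arrays, deviations from the regional mean showed which genes kept company with Fos. A family of 9 relations was tested by permuting arrays within regions (100000 resamples), with Benjamini-Hochberg adjustment. Jun (Pearson's r = 0.82, Spearman's rho = 0.79, permutation p = 0.00029 and 0.00042, adjusted 0.0013 and 0.0019) and Junb (r = 0.79, rho = 0.84, p = 0.00015 and 3e-05, adjusted 0.0013 and 0.00027) followed it most closely. Nr4a1 (r = 0.74, rho = 0.72, p = 0.00063 and 0.00089, adjusted 0.0019 and 0.0027) and Egr1 (r = 0.69, rho = 0.66, p = 0.014 and 0.0044, adjusted 0.031 and 0.01) also passed. Without PV1 and PA2, the arrays farthest from the median Fos deviation, r was 0.77, 0.78, 0.61 and 0.53 in that order. With slide as a block besides region, added after the values were seen and with no test, r was 0.77, 0.72, 0.70 and 0.59 in the same order, and 0.75 for Fosb. Within the 3 slides (7, 8 and 8 arrays), Junb kept r of 0.77, 0.73 and 0.75 and Nr4a1 0.85, 0.51 and 0.67. Jun gave 0.88, 0.94 and 0.32, and the relation of Egr1 held on 1 slide only (0.98, 0.12 and 0.11). Over all arrays, Fosb (r = 0.46, rho = 0.29, adjusted 0.23 and 0.35), Atf3 (r = 0.28, rho = 0.52, adjusted 0.47 and 0.073) and Nr4a3 (r = 0.00, rho = 0.13, adjusted 1 and 0.64) did not pass, nor did Egr3 (r = -0.27, rho = -0.31) and Egr2 by the highest probe (r = -0.21, rho = -0.19). Taken by probe, a step added after the values were seen, Egr2 gave r = 0.61 and rho = 0.45 with Fos on the dimmer probe (permutation p = 0.032 and 0.06, adjusted over 11 relations 0.071 and 0.11, r = 0.37 without PV1 and PA2). The brighter probe gave r = -0.25 and rho = -0.19 (p = 0.3 and 0.45, adjusted 0.45 and 0.49). Junb thus moved with Fos between arrays of a region although its regional means did not differ by test. Over all 45 pairs of members, r was -0.29 to 0.85, with a median of 0.26, and 33 were above 0. Arrays that share a rat or a slide would not be independent here. The mean scaled deviation of the 10 was below 0 on 6 of the 7 arrays of 1 slide, and above 0 on 6 of 8 and 4 of 8 of the others.

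By the mean deviation of the 10, each scaled by its own SD, PA4 (1.04), PV3 (1.0), PV4 (0.97) and LV3 (0.73) were the highest arrays for their regions, and PV2 (-1.07) and PV1 (-0.90) the lowest. LV3 was above the regional mean for 8 of 10, and LV4 for 1 of 10. Among 10575 other genes well above background everywhere, those whose deviations were most like this mean over 23 arrays were Traf3ip1 (r = 0.85), Btg2 (0.84), Nr4a2 (0.82), Dusp1 (0.81), Atm (0.78), Urb1 (0.78), Ddx46 (0.76), Chfr (0.75), Ccn1 (0.74) and Ints13 (0.74). Nr4a2 (Nurr1) is the third Nr4a receptor, Btg2 an antiproliferative early gene, Dusp1 a phosphatase that turns off MAP kinases and Ccn1 a matrix protein of the early response. Their spread differed: the SD within regions was 0.83 for Ccn1, 0.60 for Btg2 and 0.49 for Dusp1, but 0.12 for Ddx46 and 0.16 for Traf3ip1. These r are a description of arrays that share slides and signal level.

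Other genes of the early response were counted from lists, to be read against the shares over all genes (64.4% differing among regions, 31.4% higher and 27.7% lower in PA, 10.4% higher and 8.59% lower in PV). Of 22 further early transcription factors, 15 differed among regions (68.2%, near the share of all genes). In PA 9 were higher and 2 lower, with a median difference of 0.49 (all genes 0.05), and in PV 4 were higher and 1 lower, with a median of 0.10 (all genes -0.07). Klf6, a zinc finger factor, rose in PA by 1.86 ± 0.11, Nr4a2 by 1.73 ± 0.13, Jund, the steady Jun family member, by 1.54 ± 0.13, and Maff, a small Maf protein, by 1.3 ± 0.13. In PV, Nr4a2 was higher by 0.51 ± 0.13 (adjusted p = 0.00978), and Klf6 was not (-0.12 ± 0.11, adjusted p = 0.449). The SDs within regions of these 4 genes were 0.19 to 0.25, but they were named for the largest F, which favors a small SD. Over the 22 the median SD was 0.38, against 0.68 for the 10 members, and 1 was above the 90th percentile of all genes.

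Of 20 feedback regulators tested, 17 differed among regions (85.0%, against 64.4% of all genes), with 7 higher and 4 lower in PA (median 0.49) and 3 higher and 3 lower in PV (median 0.02). Dusp5, a nuclear phosphatase, was lower in PA by far (-4.20 ± 0.13, adjusted p = 3.15e-16), as were Gadd45a, a stress-induced growth arrest gene (-1.52 ± 0.09), and Trib1, a pseudokinase (-1.25 ± 0.11), while Zfp36l1, which destabilizes RNAs, was higher (1.11 ± 0.10). Of 16 early secreted and matrix genes, 13 differed (81.2%), with 8 higher and 2 lower in PA (median 0.75) and 2 each way in PV (median 0.10). Adamts1, a matrix protease, was higher in PA by 3.43 ± 0.16, Ccn1 by 3.32 ± 0.44, and Ccn2 by 3.13 ± 0.19. In PV, Adamts1 (0.73 ± 0.16) and Ccn2 (0.68 ± 0.19) were higher.

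Of 14 upstream kinases and factors, 12 differed among regions (85.7%, against 64.4% of all genes, where 31.4% were higher and 27.7% lower in PA), with 6 higher and 3 lower in PA (median -0.01) and 1 higher and 4 lower in PV (median -0.12). Creb1, which encodes CREB, was higher in PA by 1.35 ± 0.11, and Elk4, a partner of the serum response factor, by 0.74 ± 0.06. Both were lower in PV (-0.40 ± 0.11, adjusted p = 0.0123, and -0.25 ± 0.06, adjusted p = 0.00854) against 5 regions that include PA. Creb1 means were 8.47 in PV, 8.51 to 8.74 in LA, LV, RV and SA, and 9.93 in PA. For Elk4 they were 11.28 in PV, 11.12 to 11.53 in LA, LV, RV and SA, and 12.10 in PA. Rps6ka1 (RSK1) was lower in PA (-0.61 ± 0.09). Of 10 heat shock genes, 9 differed (90%), with 1 higher and 8 lower in PA (median -0.55) and 3 higher and 0 lower in PV (median 0.17). The PV counts are set against PA too, where 8 were lower. Hspd1, called higher in PV, was 15.01 there, 14.84 to 15.17 in LA, LV, RV and SA, and 13.82 in PA. The gene higher in PA was the inducible chaperone Hspa1a (1.70 ± 0.20), and Hspd1 (-1.22 ± 0.06), Hspe1 (-1.18 ± 0.07), both mitochondrial chaperonins, and Bag3 (-0.94 ± 0.07), a co-chaperone, were lower. Of 12 hypoxia genes, 10 differed (83.3%), with 3 higher and 6 lower in PA (median -0.39) and 1 higher and 3 lower in PV (median -0.15), and Pdk1 (-2.77 ± 0.06), Vegfa (-2.21 ± 0.11), Bnip3 (-1.73 ± 0.10) and Egln3 (-1.03 ± 0.11) were all lower in PA.

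Some cell type markers were highest in PA or PV, and others were not. The endothelium sum was highest in LV and RV (15.87 to 16.15), with 15.01 to 15.23 in PV and 14.47 to 15.42 in PA. That of 3 of 4 adipocyte markers was 13.42 to 14.40 in SA, 13.04 to 14.01 in PV and 13.01 to 14.00 in PA. Of these, Adipoq was highest in PA (regional mean 11.29) and Cidea lowest there (11.60). The sum of 4 of 4 smooth muscle markers (Myh11, Acta2, Cnn1, Actg2) was 18.88 to 19.17 in PA, 15.46 to 16.07 in PV, 14.16 to 15.21 in SA and 11.83 to 13.06 in LA, LV and RV. That of 4 of 4 fibroblast markers was 17.69 to 17.92 in PA, 17.05 to 17.50 in PV and 15.90 to 17.03 elsewhere. The collagen gene Col1a1 carried that sum (regional mean 17.28 in PA and 16.60 in PV), and Lum, a matrix proteoglycan, was also highest in PA (12.47, against 10.61 to 11.61), while Pdgfra was lowest there (11.24, against 11.35 to 12.47) and Dcn was 15.82 in PA against 15.16 to 15.95. For 3 of 4 neuron markers it was 9.50 to 11.92 in PV, 9.52 to 10.66 in PA and 7.16 to 8.60 elsewhere. In PV the means of Stmn2 (9.43), Nefm (8.65) and Gap43 (9.24) were all above those of the other heart regions, and in PA Stmn2 was 9.88, Nefm 5.83 and Gap43 6.80, the last equal to LA. For 4 of 4 Schwann cell markers the sum was 12.24 to 12.72 in PV and 10.32 to 11.57 elsewhere. The sum of 3 of 4 platelet markers was 10.68 to 11.61 in PA and 9.66 to 10.63 elsewhere. Pf4 carried it (regional mean 10.88 in PA), while Gp9 was 7.51 in PA against 7.37 to 7.88. The part of cell makeup in the higher early gene signals of PA and PV was not tested. The time of each dissection and the order of cutting are not given per array in the sources used here, so region and handling cannot be told apart.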

How the data were processed

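The rat arrays of the study were used. Per the file headers, Agilent Feature Extraction 11.0.1.1 gave each spot a background-subtracted intensity. The authors' deposited normalized intensities are these signals multiplied by 1 factor per array (0.881 to 1.516, with at least 99.6% of the probes within 2%), with equal 90th percentiles and no log taken. The deposited well-above-background flag, a detection call that is no measured intensity (unit other), came from the same scanner output.

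Of 45596 probes, 156 with a missing value were left out, and 21047 of the remaining 45440 were named through their accessions and RefSeq (GRCr8). The highest probe per gene and array was taken, a pseudocount of 1 added and log2 taken. Genes above 4 on at least 1 array were fitted with limma 3.58.1 (R 4.3.3, with the data.table package, version 1.17.8) over 6 regional means, with plain analysis of variance over these 6 regions as an alternative (the methods' own analysis of variance compared LA, ventricles and SA). In simulated data, the PV contrast recovered 74% of 200 genes changed by 1 and 95% of those changed by 2 (log2, 16089 genes). These genes were drawn from all genes tested, whose median SD (0.27) is below that of the members (0.68), so recovery of the members was not measured. Python 3.11.15 (pandas 2.3.3, numpy 2.4.6, scipy 1.17.1, matplotlib 3.10.9) did the rest. The members, lists and tests were chosen with earlier results of these data known. Named were all 10 members, the 4 genes of each list with the largest F, and the 10 genes most like the members. Some of these are not reported here. The array number limits precision. Alternatives were other scalings, normexp, filters, pseudocounts, probes, blocks and leaving out arrays.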

Additional observations from a re-analysis of the deposited data

Results flagged for a closer look

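Each member was looked at in each region with 4 arrays for a lone array far from the rest (Dixon's test at 95%). Of 50 such groups, 5 held one, and chance gives about 1 in 20. Fosb on SA3 was 5.65, against 5.34 to 5.35 on the other SA arrays, of which SA1 and SA4 were not well above background, so these values lie near the floor of the signal. Fosb on PA4 was 8.89, against 8.01 to 8.05. Junb on LV3 was 9.70, against 8.32 to 8.48, and LV3 was also the highest LV array for Fos, Jun, Egr1, Atf3 and Nr4a1. Egr1 on LA3 was 8.20, against 8.80 to 8.91. Egr3 on PA2 was 7.33, against 6.36 to 6.41. The PV arrays, which spread most, held none.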

How the results depend on the processing

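Counts of members called and the medians were recomputed under each alternative, and no called difference changed direction. With normexp, no member was called in SA (0, Fosb at -0.60), and the median SD within regions fell to 0.552. Its other differences of over 1.5 times were all smaller, in dim genes (Fosb, Nr4a3 and Egr3), and stayed called. With Egr2 by its dimmer probe, a choice made after seeing the data, SA had 2 calls and PA against PV 1. With slide as a block, Egr1 differed among regions (F 4.19, adjusted p = 0.0198) and Egr3 in the ventricles was no longer called (0.60). Leaving out 1 array gave 1 to 4 calls for the ventricles against LA, SA and PV (1 without LV1 or RV1, 4 without PV1), 3 to 7 for PV against the rest (7 without PV1), and 0 to 1 for PA against PV. The same replicate numbers did not mark related arrays (r of deviations -0.376 to 0.336, median -0.043), and with the replicate block the counts stayed at 6, 1, 6, 2, 0, 4 and 0 for the tests among regions, of SA, PA, the ventricles, LV against RV, PV, and PA against PV. Dim signals limit Fosb, Egr3 and the dimmer Egr2 probe.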
